A study of Mus musculus with 12 samples.

Results

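The genes described here are 10 transcripts of salivary gland secretory cells: Mucl2, Prol1, Scgb2b27, Pip, Klk1b16, Klk1b5, Klk1b11, Dcpp1, Car6 and Egf. They are 10 of 18193 genes with a value of their own on these arrays, and 14 of 45037 probe sets carry their names, 13 of them with 1 gene symbol. They were named from their values on the thymus and heart arrays of this same series, so the thymus and heart differences below describe the genes and are no independent evidence about them. Transcripts were measured on 12 Affymetrix Mouse Genome arrays, 1 for each of thymus, heart, lung and liver in 3 genotypes of Sv/129 mice aged 2 months. The genotypes were p53-/- mice, which lacked the tumour suppressor p53, p66-/- mice, which lacked the p66 isoform of the adaptor gene Shc1, and wild-type (WT) mice. Each array held 1 RNA pool from 4 mice of 1 genotype, the labels give no sex, and whether the pools of different organs came from the same animals was not stated. A group is therefore 1 array, the differences have no replicate check and no p-value, and how precise they are is limited by the number of arrays.

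Saliva is made in acini, whose cells release fluid and pack mucins and small secreted proteins into granules, and is modified in ducts. In mice the granular convoluted ducts of the submandibular gland store proteases of the kallikrein family and growth factors, and their content depends on androgen, so that it is larger in males. The submandibular gland lies in the neck, and its secreted products are not typical of thymus, heart, lung or liver.

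Values are log2 signals per probe set after robust multi-array averaging (RMA), and a log2 difference of 1 is a 2-fold difference. All 12 arrays had mean signals of 6.55 to 6.60, and single values ran between 3.26 and 15.41. The WT thymus array stood apart from the others of its tissue, with a correlation across probe sets of 0.929 with the p53-/- and 0.924 with the p66-/- thymus array, against 0.982 between these. In heart the same correlations with WT were 0.976 for both knock-outs. The heart label was borne out by cardiomyocyte genes, whose mean level was 13.8 in p53-/-, 13.7 in p66-/- and 14.0 in WT heart, and thymocyte genes averaged 11.3 in p53-/-, 11.2 in p66-/- and 9.94 in WT thymus. Of the thymocyte list, 8 of 13 measured genes were 2-fold or more higher in both knock-out thymus arrays, against 7.38% of all genes. The Shc1 probe set 1422854_at read 8.82 in p53-/-, 9.20 in p66-/- and 9.09 in WT thymus, and since other Shc1 isoforms share the gene this does not check the p66-/- label.

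All 10 genes were low in both knock-out thymus arrays and near the top of the scale in WT thymus. They read 3.76 to 5.99 in p53-/- and 3.80 to 5.68 in p66-/- thymus, against 14.1 to 14.7 in WT thymus. In heart they read 4.10 to 6.505 in p53-/- and 4.00 to 6.998 in p66-/-, against 6.68 to 11.4 in WT. In lung and liver no member exceeded 6.499 on any array. The WT thymus array was thus the highest for each of the 10 genes and the WT heart array the second highest for each. In WT thymus 10 of 10 were 2-fold or more above all 10 arrays other than WT thymus and WT heart, as were 0.561% of all genes, and in WT heart 6 of 10 were, against 0.104% of all genes.

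**Figure D1:**
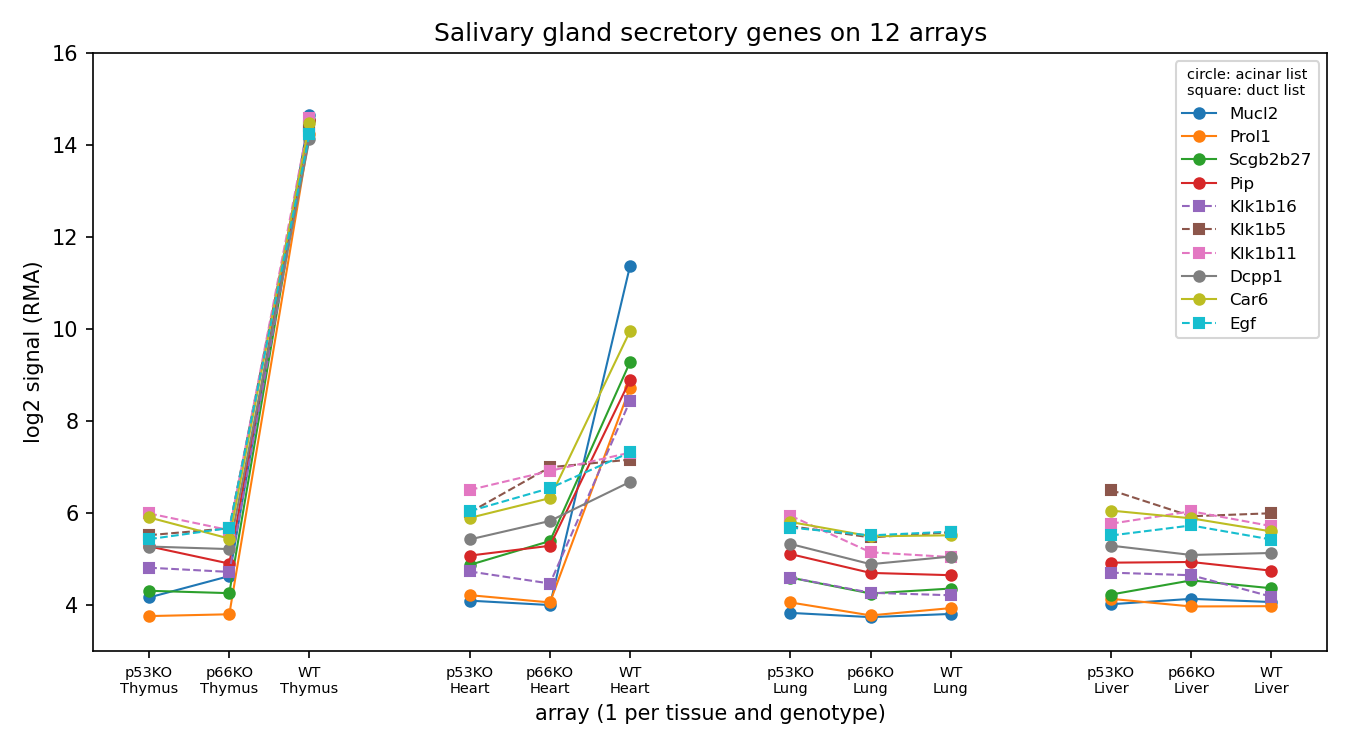
Log2 signal of each gene (colour) on the 12 arrays, grouped by tissue with p53KO (p53-/-), p66KO (p66-/-) and WT from left to right; each point is 1 array, circles are acinar and squares duct genes. The 10 genes lie within 14.1 to 14.7 in WT thymus, spread over 6.68 to 11.4 in WT heart and stay at or below 6.998 elsewhere.

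The stretches around the transcription starts are shown because these genes stood high together, and because the kallikreins among them are alike there. Transcript and probe sequences were not compared, so this likeness does not show what a probe set can tell apart. Promoters of all 10 members were found in the RefSeq table of build GRCm38.p6, and each window runs from 60 bases before the start to 20 bases from it on. The windows of Prol1, Dcpp1, Car6 and Egf were searched and are not printed. Capitals mark the TATA box core TATA or the TTTAAA core, motifs chosen after the sequences were seen. Both read the same on either strand.
Mucl2 (chr15:103899293-103899372, minus strand): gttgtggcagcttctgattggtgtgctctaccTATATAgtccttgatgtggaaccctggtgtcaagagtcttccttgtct
Pip (chr6:41847489-41847568, plus strand): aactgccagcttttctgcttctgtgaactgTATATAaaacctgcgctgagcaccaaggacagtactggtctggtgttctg
Scgb2b27 (chr7:34013923-34014002, minus strand): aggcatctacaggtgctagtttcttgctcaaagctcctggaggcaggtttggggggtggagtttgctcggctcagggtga
Klk1b16 (chr7:44137230-44137309, plus strand): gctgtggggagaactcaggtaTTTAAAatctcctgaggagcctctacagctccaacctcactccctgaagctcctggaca
Klk1b5 (chr7:44216414-44216493, plus strand): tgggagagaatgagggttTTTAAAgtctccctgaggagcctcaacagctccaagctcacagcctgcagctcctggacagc
Klk1b11 (chr7:43995817-43995896, plus strand): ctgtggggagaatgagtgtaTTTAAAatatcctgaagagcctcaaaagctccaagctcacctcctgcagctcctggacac
TATA occurred in 4 members (Mucl2, Prol1, Pip and Dcpp1) and in 12.5% of 32851 promoter windows of this length. TTTAAA occurred in 5 members (Klk1b16, Klk1b5, Klk1b11, Car6 and Egf) and in 3.37% of all windows. The kallikreins among these 5 have like sequences, so they are not separate cases. Scgb2b27 held neither, and 15.2% of all windows held at least 1 of the 2 motifs. Over the full promoter entries of 250 bases before and 50 after the start, the 3 kallikrein pairs were 81.6% to 90.4% identical, while the other 42 pairs of members were 42.9% to 51.5% identical. A match describes the letters in the window and says nothing of which factor acts there.

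The acinar products were low on both knock-out arrays and, all but 1, clearly above them in WT heart. Mucl2 (probe set 1448168_a_at), a small mucin-like protein of saliva, read 4.17 in p53-/- and 4.63 in p66-/- thymus, against 14.66 in WT thymus. Its heart values were 4.10 in p53-/- and 4.00 in p66-/-, against 11.38 in WT. Mucl2 was thus as low in both knock-out hearts as in lung and liver and far higher in WT heart, with differences of -7.28 in p53-/- and -7.38 in p66-/-, and its lung and liver values lay between 3.74 and 4.14. Prol1 (1449587_a_at), which encodes a submandibular mucin, read 3.76 in p53-/- and 3.80 in p66-/- thymus, against 14.23 in WT thymus. Its heart values were 4.22 in p53-/- and 4.06 in p66-/-, against 8.73 in WT. The knock-out and WT values did not come near each other in either tissue, and the heart differences were -4.51 in p53-/- and -4.67 in p66-/-.

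Scgb2b27 (1425032_at), a secretoglobin subunit of the salivary androgen-binding proteins, read 4.31 in p53-/- and 4.26 in p66-/- thymus, against 14.54 in WT thymus. The heart arrays gave 4.88 in p53-/- and 5.39 in p66-/-, against 9.29 in WT. It therefore differed by -4.41 in p53-/- and -3.89 in p66-/- heart, close to Prol1. Pip (1449212_at), the prolactin-induced protein of glandular secretions, read 5.28 in p53-/- and 4.90 in p66-/- thymus, against 14.54 in WT thymus. Its heart values were 5.08 in p53-/- and 5.29 in p66-/-, against 8.89 in WT, or differences of -3.82 in p53-/- and -3.60 in p66-/-. In lung and liver Pip read 4.65 to 5.11, a range that held its p53-/- heart value, while its p66-/- heart value lay slightly above.

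Car6 (1421001_a_at), the secreted carbonic anhydrase of saliva, read 5.91 in p53-/- and 5.45 in p66-/- thymus, against 14.48 in WT thymus. On the heart arrays it read 5.90 in p53-/- and 6.33 in p66-/-, against 9.96 in WT. Its heart differences were -4.06 in p53-/- and -3.63 in p66-/-, and among the members only Mucl2 had a larger trace in WT heart relative to its own thymus signal. Dcpp1 (1417459_at), a protein of demilune and parotid cells, read 5.27 in p53-/- and 5.22 in p66-/- thymus, against 14.13 in WT thymus. Its heart values were 5.43 in p53-/- and 5.83 in p66-/-, against 6.68 in WT. Dcpp1 is the acinar member that was not 2-fold lower in both knock-out hearts, at -1.25 in p53-/- and -0.85 in p66-/-.

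The duct products also lay near the top of the scale in WT thymus but, with 1 exception, missed a 2-fold difference from at least 1 knock-out in heart. The exception was Klk1b16 (1420490_at), a glandular kallikrein, at 4.81 in p53-/- and 4.72 in p66-/- thymus, against 14.31 in WT thymus. In heart it read 4.73 in p53-/- and 4.47 in p66-/-, against 8.44 in WT, a separation like that of Pip. Its relative Klk1b5 (1419010_x_at) read 5.52 in p53-/- and 5.67 in p66-/- thymus, against 14.41 in WT thymus. Its heart values were 6.02 in p53-/- and 6.998 in p66-/-, against 7.16 in WT. The p66-/- heart value thus came close to WT, at a difference of -0.16.

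Klk1b11 (1425144_at), another kallikrein of this cluster, read 5.99 in p53-/- and 5.63 in p66-/- thymus, against 14.58 in WT thymus. The heart arrays gave 6.505 in p53-/- and 6.92 in p66-/-, against 7.32 in WT. It was the member that missed the 2-fold difference in both knock-out hearts, at -0.81 in p53-/- and -0.40 in p66-/-. Egf (1418093_a_at), the epidermal growth factor that these ducts store, read 5.43 in p53-/- and 5.68 in p66-/- thymus, against 14.24 in WT thymus. Its heart values were 6.04 in p53-/- and 6.54 in p66-/-, against 7.32 in WT. Egf differed by -1.28 in p53-/- and -0.78 in p66-/- heart, so only the first passed 2-fold.

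Counted over the members, 10 of 10 were 2-fold or more lower in p53-/- thymus and 10 of 10 in p66-/- thymus, where 4.81% and 4.78% of all genes were. The median member difference was -9.08 in p53-/- and -9.31 in p66-/- thymus, while the median over all genes was -0.0074 and -0.028. The smallest of these 20 differences was -8.56 and the largest -10.49, and both ends of this scale are compressed. In heart 9 of 10 were 2-fold or more lower in p53-/- and 6 of 10 in p66-/-, against 2.08% and 1.67% of all genes. The median member difference was -3.76 in p53-/- and -3.62 in p66-/- heart, against 0.027 and -0.0039 over all genes. Both knock-outs passed together for 10 of 10 members in thymus, against 2.91% of all genes, and for 6 of 10 in heart, against 0.852% of all genes. Both knock-outs of a tissue are set against the same WT array, so their values are not independent of each other. Since the members were chosen on these arrays, nothing is read from how far these counts lie above the background. In lung and liver 0 of 10 members differed by 2-fold, and the differences ran from -0.17 to 0.90.

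**Figure D2:**
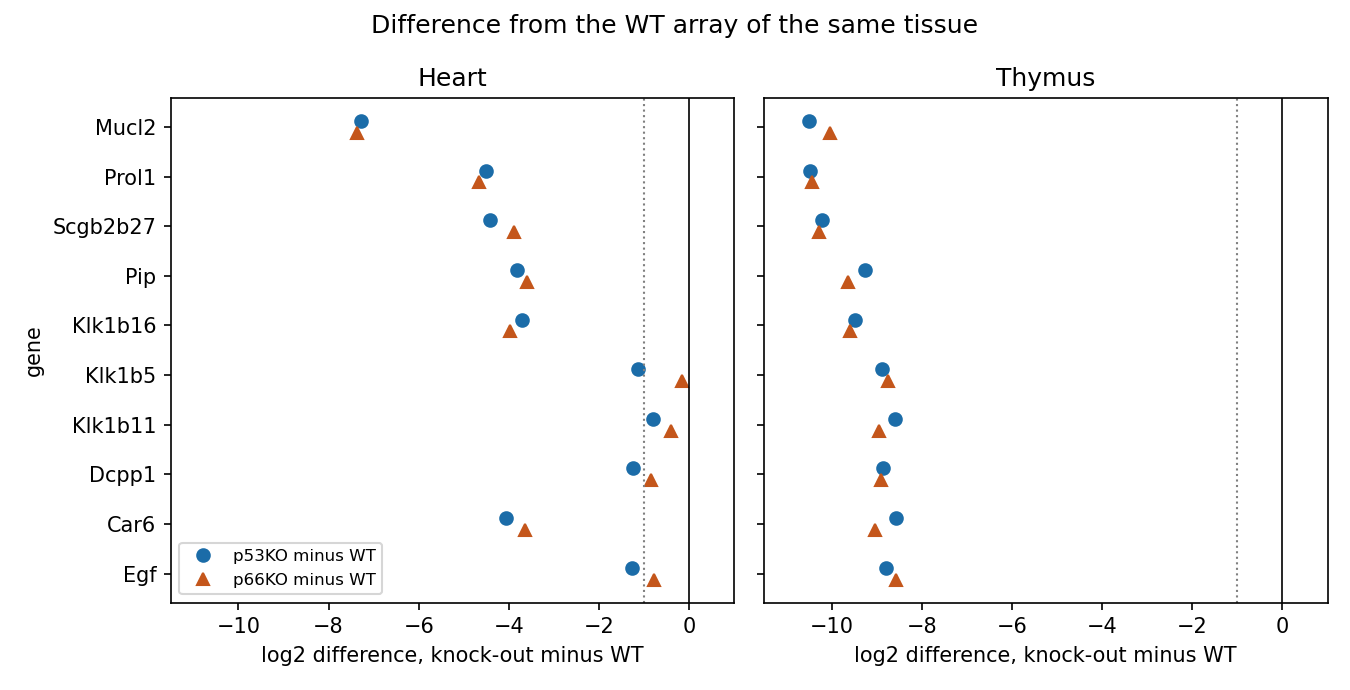
Log2 difference of p53KO (p53-/-, circles) and p66KO (p66-/-, triangles) from the WT array of the same tissue, for each gene, in heart (left) and thymus (right); the dotted line marks 2-fold lower and there is 1 array per point and reference. All 20 thymus differences lie between -8.56 and -10.49, while the heart differences run from -0.16 to -7.38 and separate 6 genes from Klk1b5, Klk1b11, Dcpp1 and Egf.

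The size of the WT heart trace relative to WT thymus differed between members. For each probe set, the excess of the WT heart array over the mean of both knock-out heart arrays was taken on the linear scale and given as a percent of the same excess in thymus. If heart held a fixed dilution of what the thymus array held, this share would be equal for all genes. It was 10.2% for Mucl2, 4.07% for Car6, 2.48% for Scgb2b27, 2.11% for Prol1, 1.85% for Pip and 1.60% for Klk1b16. It was 0.415% for Egf, 0.293% for Dcpp1, 0.219% for Klk1b11 and 0.216% for Klk1b5. The median was 1.73%, and the highest and lowest differed 47.4-fold. Among the 6 members lower in both knock-out hearts they differed 6.39-fold, and without Mucl2 2.54-fold. That fold rests on which members pass and which probe sets are used, being 34.9 over the 8 members past 1.5-fold, 33.0 over 7 with cyclic loess and 1.55 over 3 without probe sets ending in _x_at, _s_at or _a_at. RMA values are compressed near both ends of the scale, all WT thymus values lay near its top within a narrow range, and the 4 lowest shares come from the members whose WT heart values lay least above the knock-outs. The shares are therefore approximate, and their spread follows the heart values.

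Put in log2 terms, Klk1b5 at the Mucl2 share would have read 11.18 in WT heart and read 7.16, a difference of -4.02. Egf would have read 11.004 and read 7.32. At the median share the gap was smaller, with 8.88 for Klk1b5 and 8.69 for Egf, and Mucl2 itself stood 2.52 above its value at that share. Pip and Klk1b16 lay at 0.09 and -0.10 from theirs.

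**Figure D3:**
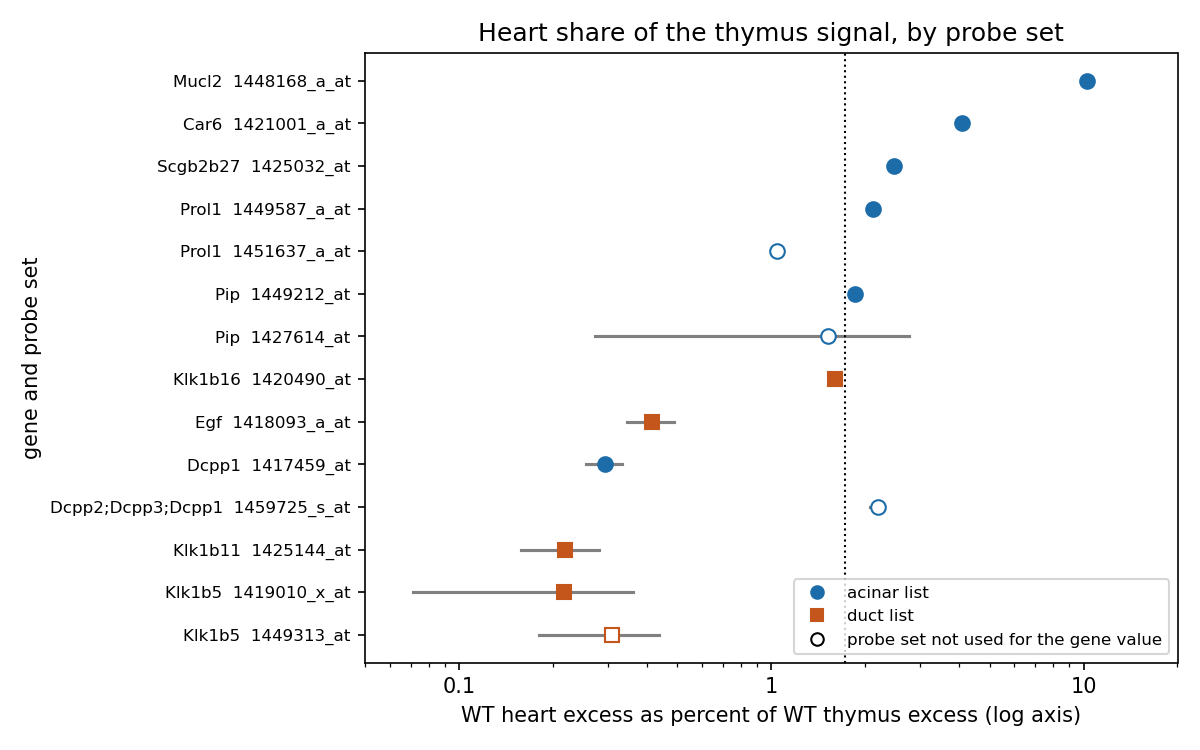
WT heart excess over the knock-out hearts as a percent of the WT thymus excess over the knock-out thymuses (log axis), for each of 14 probe sets; circles are acinar and squares duct genes, open symbols are probe sets not used for the gene value, and the dotted line is the median of 1.73%. Grey lines join the shares with the baseline set at the highest of the 10 other arrays and at the lower knock-out array, and only for weak traces such as Klk1b5 are they wide.

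Other probe sets of the same genes changed some of these shares. A second Dcpp1 probe set, 1459725_s_at, which also carries the names of the related Dcpp2 and Dcpp3, read 4.75 in p53-/- and 5.19 in p66-/- heart, against 9.19 in WT heart. Its share was 2.19%, 7.47 times that of the Dcpp1 probe set, so the weak heart trace of Dcpp1 rests on its own probe set. The second Prol1 probe set gave 1.04% in place of 2.11%, and that of Klk1b5 0.308% in place of 0.216%. The second Pip probe set was weak, at 8.87 in WT thymus, and its share of 1.52% became 0.271% or 2.76% with another baseline.

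The p66-/- heart array read above the p53-/- heart array for 7 of 10 members, with a median of 0.41 over all 10. Over all 18193 genes 46.1% read higher on the p66-/- heart array, with a median difference of -0.026. Klk1b5 differed most, by 0.98, followed by Scgb2b27 with 0.52 and Egf with 0.50, while the difference of p66-/- from p53-/- heart was -0.26 for Klk1b16, -0.16 for Prol1 and -0.10 for Mucl2. The members raised in p66-/- heart include the 4 with the weakest WT trace, so how they count in WT heart depends on which knock-out array is the baseline. For Klk1b5 the share was 0.071% with the baseline at the highest of the 10 other arrays and 0.361% with it at the lower knock-out array. The order of Mucl2 and Car6 above the rest did not depend on that choice, at 10.2% and 4.03% or 10.2% and 4.11%.

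Lists of acinar and duct genes were read, which hold the members and further genes. Of all genes, 2.91% were 2-fold or more lower in both knock-outs in thymus and 0.852% in heart. The acinar list had 18 measured genes, of which 6 are members. It held 13 genes 2-fold or more lower in both knock-out thymus arrays and 6 in both knock-out heart arrays. All 6 members are among the 13, and 5 of them are among the 6 in heart. The members were chosen on these arrays, so nothing is read from these counts. The median of the acinar list was -6.49 in p53-/- and -6.00 in p66-/- thymus, and -0.38 in p53-/- and -0.17 in p66-/- heart. Scgb1b27, the partner subunit of Scgb2b27, was the sixth in heart, at 7.25 in p53-/- and 7.18 in p66-/- against 11.002 in WT, with a share of 4.57%. The parotid secretory protein Bpifa2 read 5.26 in p53-/- and 5.38 in p66-/- against 13.69 in WT thymus. In heart it read 5.87 in p53-/- and 6.67 in p66-/- against 6.95 in WT. The salivary amylase gene Amy1, the cystatin Cst10, the nuclease Dnase1 and lactoperoxidase, Lpo, passed in thymus and not in heart. Smgc, Prpmp5, Scgb1b2, Agr2 and Bpifb2 did not pass in thymus.

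The granular duct list had 13 measured genes, of which 4 are members. It held 11 genes lower in both knock-out thymus arrays and 2 in both knock-out hearts, against 2.91% and 0.852% of all genes. All 4 members are among the 11, and 1 of them is among the 2 in heart, so nothing is read from these counts. The median of the duct list was -8.26 in p53-/- and -7.90 in p66-/- thymus, and -0.67 in p53-/- and -0.40 in p66-/- heart. The 2 in heart were Klk1b16 and Klk1b27, and Klk1b27 read 5.54 in p53-/- and 5.82 in p66-/- against 7.04 in WT heart. Klk1b24 read 6.40 in p53-/- and 7.45 in p66-/- heart against 6.95 in WT heart, so that WT lay between the knock-outs. The duct gene Smr3a read 5.14 in p53-/- and 4.96 in p66-/- against 10.83 in WT thymus, and Klk1 and Smr2 did not pass in thymus on the probe sets with the highest mean. That depended on the probe set: with the mean of all probe sets 12 of 13 duct genes passed in thymus, and without probe sets ending in _x_at, _s_at or _a_at 11 of 11 did.

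Whether a gene could show in heart depends on its own signal. Carried over from thymus at the median share of 1.73%, 9 of the 13 acinar genes lower in thymus would have been 2-fold lower in both knock-out hearts, and 6 were. Those that were not are Dcpp1, Bpifa2 and Amy1. Of the 11 duct genes 9 would have been, and 2 were. The 7 others were Egf, Klk1b1, Klk1b5, Klk1b8, Klk1b11, Klk1b21 and Klk1b24, whose WT heart values lay at -1.84 to -1.03 from the value at the median share. The other 4 acinar genes, Dcpp3, Cst10, Dnase1 and Lpo, would not have passed at that share, so that a trace of this size was not detectable for them. At the Mucl2 share of 10.2%, 13 of the 13 acinar and 10 of the 11 duct genes would have passed in heart. Both shares come from the members, which supply 6 of the acinar and 4 of the duct genes counted here. The members were chosen on WT heart among other arrays, so nothing is read from these counts.

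**Figure D4:**
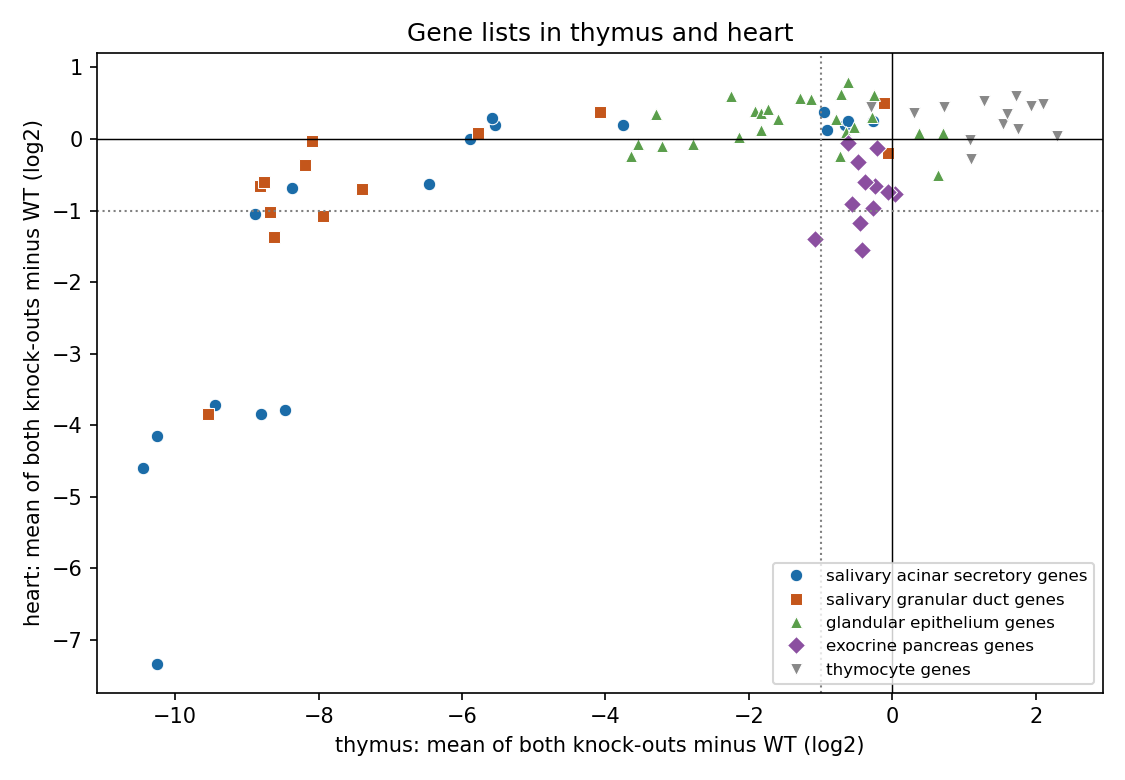
Mean log2 difference of both knock-outs from WT in thymus (horizontal) and in heart (vertical) for the measured genes of 5 lists, 1 point per gene, with dotted lines at 2-fold lower. Most acinar and duct genes lie far left, and 6 acinar genes with Klk1b16 lie lowest in heart. Klk1b27, Klk1b8, Dcpp1 and Egf lie just below the heart line, as do the exocrine pancreas genes Cela1, Pnliprp1 and Cela2a. Of the 25 glandular epithelium genes 3 lie right of 0 in thymus, as do most thymocyte genes.

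Within the kallikrein family the high WT thymus signal belonged to the Klk1 and Klk1b genes. Of 10 measured Klk1 and Klk1b genes, 9 were 2-fold or more lower in both knock-out thymus arrays, against 2.91% of all genes. Among the 9 are Klk1b16, Klk1b5 and Klk1b11, members that were chosen on these arrays. The exception among the 10 was Klk1 itself, a tissue kallikrein. Its probe set with the highest mean read 8.27 in p53-/- and 7.97 in p66-/- against 8.24 in WT thymus. The other 3 probe sets of Klk1 passed, and the brightest of these in WT thymus read 5.57 in p53-/- and 5.16 in p66-/- against 14.11 in WT thymus. Probe sets of Klk1 thus disagreed, and its call depends on which is taken. Of 10 other kallikrein genes, Klk4 to Klk13, 0 passed, and the differences over them ran from -0.996 to 0.45. In heart 2 of the 10 Klk1 and Klk1b genes passed, the member Klk1b16 and Klk1b27, and 0 of the others, against 0.852% of all genes. The Klk1b genes are near copies of each other, so that signal of one may reach the probe set of another, which was not tested. Their separate values are therefore uncertain.

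**Figure D5:**
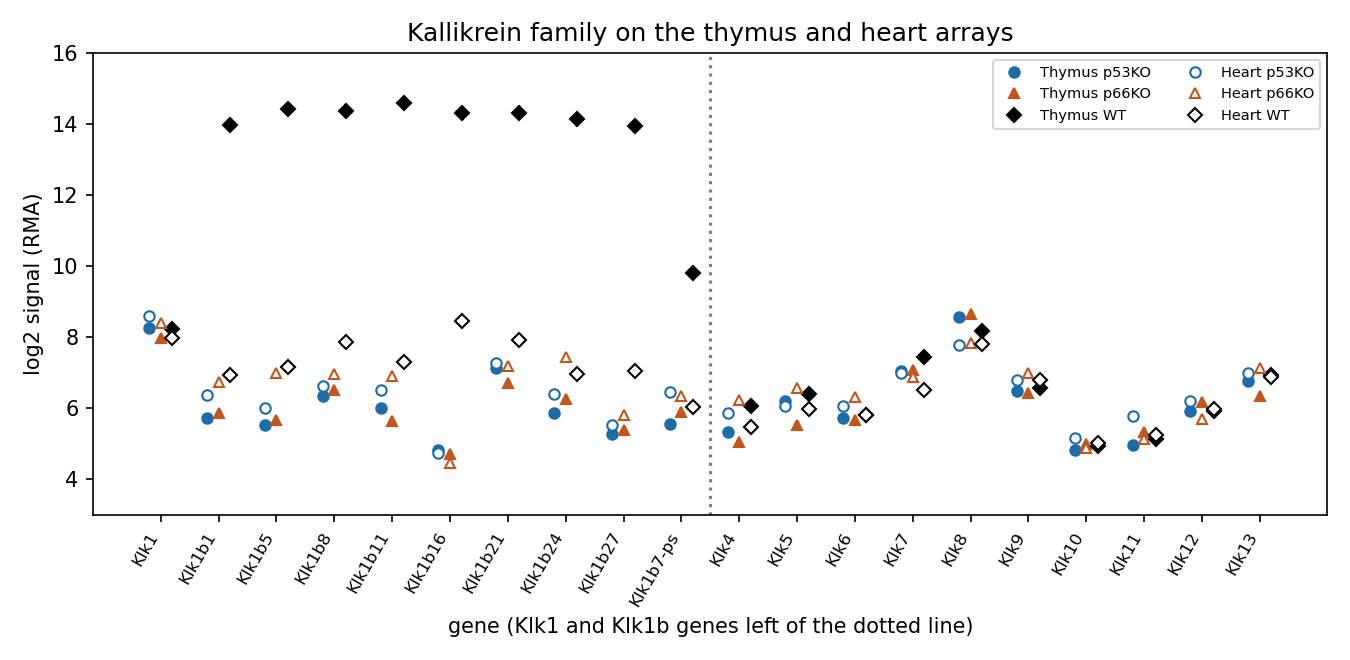
Log2 signal of 20 kallikrein family genes on the thymus (filled) and heart (open) arrays, with p53KO (p53-/-), p66KO (p66-/-) and WT from left to right for each gene and 1 array per point. In WT thymus 8 Klk1b genes stand near 14 and the pseudogene Klk1b7-ps at 9.80, while Klk1, on its probe set with the highest mean, and Klk4 to Klk13 differ by less than 2-fold from WT in thymus; in heart Klk1b16 stands out in WT.

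Structural and regulatory genes of gland cells also differed in thymus. Of 25 measured glandular epithelium genes, 14 were 2-fold or more lower in both knock-out thymus arrays, against 2.91% of all genes, and 0 in both knock-out hearts, against 0.852%. Carried over at the median heart share of the members, 1.73%, 0 of these 14 would have passed in heart. A trace of that size was thus not detectable for them. That share comes from members chosen on WT heart, and no larger share was tried for these 14. Nothing is therefore read from the 0 in heart. The keratins Krt8 (0.51 in p53-/- and 0.91 in p66-/-) and Krt18 (0.44 and 0.84) and the potassium channel Kcnn4 (0.17 and 0.57) had positive thymus differences below 2-fold. Among the 14 the chloride importer Slc12a2 read 7.58 in p53-/- and 8.16 in p66-/- against 11.51 in WT thymus. Aqp5, the water channel of acinar cells, read 7.12 in p53-/- and 7.36 in p66-/- against 10.79 in WT thymus. Bhlha15, a transcription factor of secretory cells, read 7.15 in p53-/- and 6.77 in p66-/- against 10.26 in WT thymus, and the tight junction gene Cldn7 6.19 and 6.14 against 9.38. In heart Aqp5 read 7.12 in p53-/- and 6.89 in p66-/- against 7.07 in WT. Aqp5, Slc12a2 and Cldn7 were also high in WT lung, at 12.32, 11.14 and 9.12, while Bhlha15 read 6.86 there. The first of these are thus not particular to salivary gland on these arrays. In RNA from whole organs, fewer cells of a type and less RNA per cell cannot be told apart. Where the gland signal on the WT arrays came from was not tested.

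Genes of secretory load were counted in the same way, as lower in both knock-outs, which 2.91% of all genes were in thymus and 0.852% in heart. Of 12, 1 passed in thymus (Ssr4, part of the translocon, at -1.70 in p53-/- and -1.31 in p66-/-) and 1 in heart, the signal peptidase subunit Sec11c, at -1.17 in p53-/- and -1.19 in p66-/-. Of 7 myoepithelial and basal genes, the contractile genes Cnn1 and Mylk were lower and the keratins Krt5 and Krt14 higher in both knock-out thymus arrays. The casein gene Csn3 was the 1 of 7 mammary genes lower in both knock-out thymus arrays, at 6.33 in p53-/- and 5.65 in p66-/- against 7.36 in WT thymus, and 0 of 5 thyroid and parathyroid genes were.

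Some markers of other tissues were also lower in both knock-outs, as were 0.852% of all genes in heart and 2.91% in thymus. In heart, 2 of 12 exocrine pancreas genes were 2-fold or more lower in both knock-outs, the elastase Cela1 and the lipase-related Pnliprp1. Over this list the median heart difference was -0.73 for p53-/- and -0.75 for p66-/-, and in thymus, where 0 passed, it was -0.30 and -0.47. Its summed linear signal was 2173 in p53-/-, 2417 in p66-/- and 3313 in WT heart. Adipocyte genes (2 of 6, Adipoq and Cidec), B cell and plasma cell genes (2 of 12, Jchain and Ighm), 1 of 9 hepatocyte genes (Cyp2e1) and 1 of 11 skeletal muscle genes (Acta1) were also lower in both knock-out hearts. In thymus, 2 of 10 cardiomyocyte genes, Myl2 and Pln, were lower in both knock-outs, with Myl2 at 6.78 in p53-/- and 6.75 in p66-/- against 10.04 in WT thymus. The whole cardiomyocyte list averaged 6.08 in p53-/-, 8.47 in p66-/- and 8.54 in WT thymus, so that p66-/- lay near WT, unlike for the members. Of 9 airway gland and club cell genes 0 were lower and Reg3g was higher in both, and Scgb1a1 read 7.13 in p53-/- and 13.22 in p66-/- against 11.87 in WT thymus. Of 7 lung epithelium genes 0 passed in either tissue. The part of these other tissues in the result was not tested.

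The array controls differed from the members in pattern, with 18S ribosomal RNA clearly low in p66-/- thymus alone among the thymus and heart arrays. The 3 control probe sets for 18S ribosomal RNA averaged 10.3 in p53-/-, 5.97 in p66-/- and 10.9 in WT thymus, and 9.43, 9.04 and 9.61 in the same heart arrays. The 3′ end of Gapdh, a measure of RNA quality, exceeded its 5′ end by 0.24 in p53-/-, 0.59 in p66-/- and 0.35 in WT thymus, and by 0.25, 0.31 and 0.41 in heart. The part of these controls in the thymus and heart differences was not tested.

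The likeness of other genes to the members was measured over the 12 arrays. The mean member profile had its highest Pearson correlation with Crisp3, a cysteine-rich secretory protein, at 0.998, then Scgb1b27 at 0.993, Klk1b27 at 0.987, Klk1b8 at 0.981 and Egfbp2, an Egf-binding kallikrein, at 0.974. Bpifa2, Klk1b21, Klk1b1, 2310057J18Rik and Wfdc12 followed at 0.973 to 0.963. These values are over 12 arrays and rest largely on WT thymus. Over the 11 arrays without it, Scgb1b27 (0.995), Crisp3 (0.985), Klk1b8 (0.975) and Klk1b27 (0.959) were again the 4 highest. Those values rest largely on WT heart, on which the members were also chosen, so they are no independent check. Next came Glipr1l2 (0.946), Pnliprp1 (0.928) and Reg1 (0.904), which ranked 5641, 187 and 4026 over the 12 arrays. Crisp3 read 3.37 in p53-/- and 3.27 in p66-/- against 13.39 in WT thymus, and 3.65 in p53-/- and 3.70 in p66-/- against 7.40 in WT heart. Its heart share was 1.46%, near that of Klk1b16.

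Of all genes, 19 were 2-fold or more lower in both knock-outs in both thymus and heart, or 0.104%, and 6 of these were members. The members were chosen on these arrays, so nothing is read from their number or rank among the 19. The other 13 include Scgb1b27, Crisp3 and Klk1b27. By the smaller heart difference, 6 members were among the first 10 of the 19, together with Scgb1b27, Crisp3, the heat shock gene Hspa1b and the iron-binding protein gene Lcn2. Hspa1b read 7.21 in p53-/- and 7.63 in p66-/- against 10.58 in WT heart, and 7.62 in p53-/- and 8.84 in p66-/- against 10.06 in WT thymus. Unlike the members it was also lower in both knock-outs in lung, at -4.35 in p53-/- and -2.41 in p66-/-, and in liver, at -2.63 and -1.54. Lcn2 was lower in lung and liver too, with liver differences of -5.62 in p53-/- and -5.98 in p66-/-.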

How the data were processed

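Organ RNA (liver, lung, heart, thymus) of Sv/129 mice, pooled from 4 mice per genotype, was hybridised to 12 Affymetrix Mouse Genome arrays. The labels and the methods differ in the RNA input and the array format. The authors deposited log2 signals, 1 per probe set and array, from RMA in Partek 6.5, which corrects background, quantile-normalizes and summarises by median polish, and scanner files were not used. The table holds 45101 probe sets. Without 64 controls, 34945 had 1 symbol, 932 had several and 9160 had none in the platform annotation, which gave the gene names. The Entrez numbers of 34741 were in the RefSeq table. RefSeq was used for this count and for the promoters alone. Each of 18193 genes took the probe set with the highest mean over the arrays.

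Differences are knock-out minus WT of the same tissue on the log2 scale, and 2-fold was the threshold. The heart share was computed per probe set on the linear scale. Groups were taken from the labels, 1 array each, so no test was run. The share computation was tried on simulated data. These had no compression at the top of the scale and no share as low as those of Egf, Dcpp1, Klk1b11 and Klk1b5. They therefore say nothing of how precise such shares are. Members and the 17 other gene lists were chosen with earlier results of these data known.

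Named were all members, up to 6 genes of each salivary list and up to 4 of each other list with the largest mean difference in thymus or heart, the 10 genes most like the mean member profile, the 10 genes lowest in both tissues by the smaller heart difference, and the control probe sets. Other genes of the salivary lists, Klk1b24 among them, and Lpo, Dnase1, Cst10, Krt8, Krt18, Kcnn4, Glipr1l2 and Reg1, were named after their values were seen. Alternatives were thresholds of 1.5-fold and 3-fold, median centring, a repeat of quantile normalization, averaging the probe sets of each gene, cyclic loess within each tissue, leaving out probe sets ending in _x_at, _s_at or _a_at, brighter genes alone and 2 other baselines. Python 3.11.15, numpy 2.4.6, pandas 2.3.3, matplotlib 3.10.9, R 4.3.3 and limma 3.58.1 were used.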

Additional observations from a re-analysis of the deposited data

Results flagged for a closer look

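Adipoq, the adipokine gene, was 2-fold or more lower in both knock-out hearts and 2-fold or more higher in both knock-out lungs, with a mean heart difference of -1.38, and this contrast between tissues was not tested. Ssr4, a translocon subunit, was 2-fold or more lower in both knock-out thymus arrays and 2-fold or more higher in both knock-out lungs, with a mean thymus difference of -1.50, and this contrast was not tested either.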

How the results depend on the processing

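Of 104 alternative values of 15 results, 80 stayed within the tolerance, 24 moved and 0 reversed. A change of median was set against the SD of the differences between the knock-out arrays (0.38 in thymus, 0.30 in heart), and of a count or share against 1.5-fold. At 1.5-fold, 104 genes were lower in both tissues, 5 duct genes passed in heart, and the highest and lowest heart share differed 34.9-fold over 8 members. At 3-fold, 9 genes were lower in both tissues and 1 duct gene passed in heart. With cyclic loess the fold between shares was 33.0 over 7 members. With the mean of all probe sets the heart medians were -2.92 in p53-/- and -2.73 in p66-/-. Without probe sets ending in _x_at, _s_at or _a_at, 6 members were measured, Mucl2 and Car6 not among them. Then 6 of 6 were lower in p53-/- and 6 of 6 in p66-/- thymus, and 5 and 3 in the same hearts, with heart medians of -2.51 and -2.23, a median share of 0.955% and a fold of 1.55 over 3 members. In that setting 12 genes were lower in both tissues, as were 7 of 12 acinar genes in thymus and 3 in heart. With brighter genes alone, no member was left, so their values could not be had. Then 11 genes were lower in both tissues, 4 of 4 acinar genes in thymus and 1 in heart, and 2 of 4 duct genes in thymus and 0 in heart. Apart from these constructions the cause of a change was not tested. No paired analysis was possible because each tissue and genotype had 1 array. For the same reason no replicate could be left out. Low signals limit what heart can show.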
